A study of Mus musculus with 30 samples.

Results

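The response of wildtype cells to Gdf11 was read from 6 of the 30 RNAseq libraries of the series, the 3 labelled d4G and the 3 labelled d4, which were chosen by their labels and not by any measured value. The study followed mouse embryonic stem cells of the ES-Bruce4 line through 5 stages to neuromesodermal progenitors (NMPs), which lie at the caudal end of the embryo and supply both spinal cord and trunk mesoderm, in wildtype cells and in cells lacking Nr6a1. All groups were cultured in N2B27 medium with FGF2. CHIR99021, an agonist of the Wnt pathway, was added after 48 h (d2), and cells were collected at d2.5 and d3. From d3, wildtype cells were kept in FGF2 and CHIR99021 for another 24 h (d4), or in FGF2 and CHIR99021 together with Gdf11 for those 24 h (d4G), so that d4 and d4G cells had the same genotype, age, FGF2 and CHIR99021 and differed in Gdf11. The Nr6a1-/- cells, used here for comparison, came from 1 clone with deletions made by CRISPR/Cas9 and were taken through the same treatments. The labels do not say whether the 3 replicates of a group were separate cultures, so p-values measure only the spread between these libraries.

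Gdf11 is a secreted ligand of the TGF-beta family. It binds activin type II receptors together with the type I receptors Acvr1b and Tgfbr1, which phosphorylate Smad2 and Smad3, and these enter the nucleus with Smad4 and bind DNA at short sites that contain CAGAC. The same pathway switches on its own inhibitors, and in the tail end of the mouse embryo Gdf11 is known as the signal that brings trunk formation to a close and sets the level of the hindlimb and sacrum.

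Totals were 2383076 to 3688197 counts in the d4 libraries and 2081207 to 2365945 in the d4G libraries. Levels below are counts per 1000000 of the library total (CPM), scaled for library composition, and replicates are always listed in the order 1, 2, 3. Differences are log2 fold changes, d4G over d4, given with ± the standard error (SE) for 3 libraries against 3. Genes with a false discovery rate (FDR) below 0.05 in edgeR's quasi-likelihood test were called, and rose or fell is used for called genes alone. Replicate 2 of d4 carried transcripts of the d2 stage: the 20 listed genes of the epiblast and of pluripotency summed to 1290 CPM in it, against 501 and 512 CPM in the other d4 libraries, 876 to 1011 CPM at d4G and 4446 to 4623 CPM at d2. On the first principal component of the wildtype libraries, which held 51.4% of their variance, it stood at 18.6, between d3 (1.2 to 2.7) and the other d4 libraries (38.5 and 39.8), while d4G libraries stood at 59.0 to 61.1. Each result was therefore also taken without it. Wildtype d4 and d4G libraries of the same replicate letter carry the same index in their labels, so that such a pair is taken to come from different pools. The labels name no pool, so how pools were made up is not known, and pool and treatment cannot be told apart. In Nr6a1-/- cells, the d4 and d4G libraries of replicate 1 share an index in the same way.

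Of 12149 genes tested, 3498 (28.8%) were called, 1741 higher (14.3%) and 1757 lower (14.5%) with Gdf11. The libraries of both groups did not overlap for 4985 genes (41.0%), 2531 of them higher (20.8%) and 2454 lower (20.2%), among them 3266 of the called genes. More genes rose than fell by a large amount: 545 genes (4.49%) rose by more than 1 on the log2 scale and 369 (3.04%) fell by as much, and 144 (1.19%) rose and 103 (0.848%) fell by more than 2. Without d4 replicate 2, 2827 genes (23.3%) were called, of which 2659 were called in the same direction with it. Scaling by library totals alone called 3630 genes (29.9%), 2286 higher (18.8%) and 1344 lower (11.1%), so the share of calls that were higher went from 49.8% to 63.0%, and the median over all genes went from 0.02 to 0.11.

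**Figure D1:**
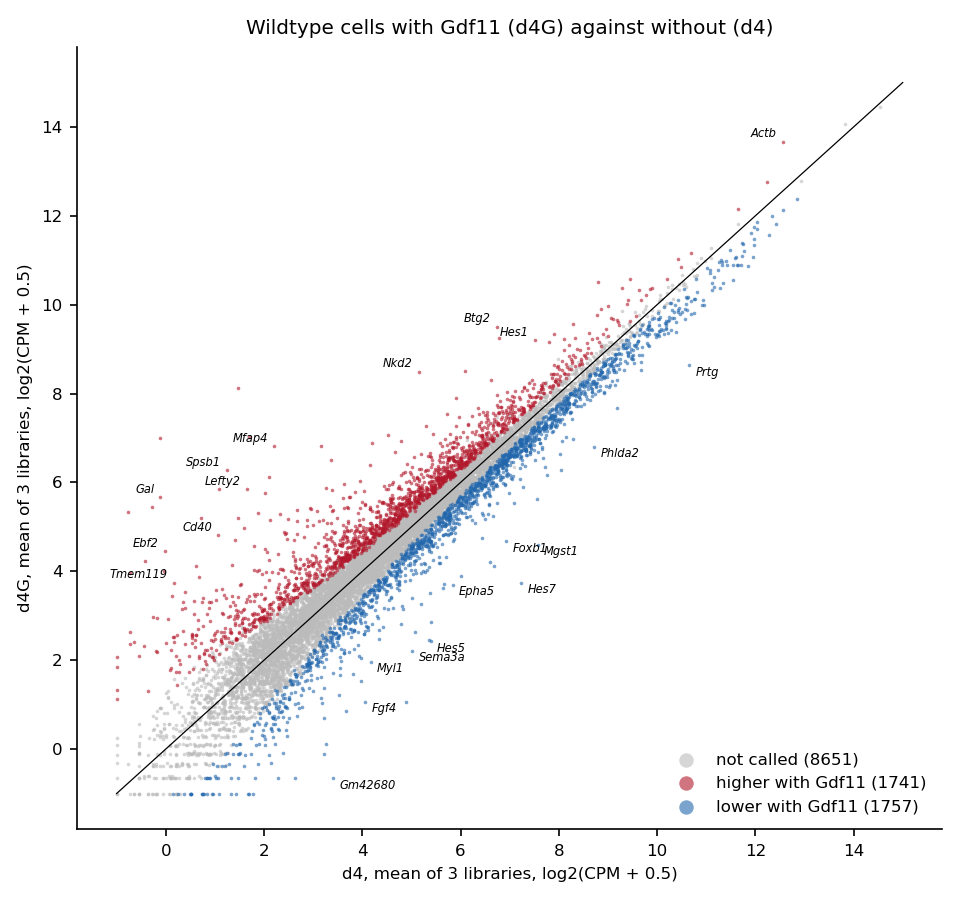
Mean level of each tested gene at d4 (x axis) and d4G (y axis), both as log2(CPM + 0.5) over 3 libraries, with genes called higher and lower in colour and the diagonal drawn as a line. Gal, Spsb1 and Lefty2 lie far above the diagonal and Hes7, Fgf4 and Mgst1 below it, among 1741 genes called higher and 1757 called lower.

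Genes of the Gdf11 and activin pathway rose more often than they fell. Of 60 listed members, 44 passed the filter on low counts, 25 rose and 3 fell (25 and 1 without d4 replicate 2), and their median log2 fold change was 0.77. Over all genes tested the median was 0.02 and 28.8% were called. The list was chosen from textbook roles, with earlier results of these data known.

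Among the ligands, Gdf11 transcripts themselves stood at 178, 206 and 310.5 CPM at d4 and 156, 163 and 221 CPM at d4G. These ranges overlapped and the gene was not called (-0.37 ± 0.19). It was called lower in 3 other settings: in the 6 libraries alone with replicate number as a block (-0.37, edgeR FDR 1.1e-05), with no filter on low counts (-0.38, edgeR FDR 0.0103) and without d4 replicate 1 (-0.52, edgeR FDR 0.0477). Without d4 replicate 3 the difference was -0.10. Nodal, the ligand that patterns the early embryo through the same receptors, measured 1.3, 1.4 and 0.9 CPM at d4 and 11.5, 9.7 and 8.8 CPM at d4G. It rose by 3.02 ± 0.41 (edgeR FDR 4.45e-07), with all d4G libraries above all d4 libraries. At d4 Nodal stood near the limit of detection, so the size of its rise is uncertain (2.41 with counts thinned to the smallest total). Tgfb2, a TGF-beta ligand, measured 2.2, 1.9 and 2.1 CPM at d4 and 15.7, 19.3 and 16.3 CPM at d4G, again without overlap, and rose by 3.04 ± 0.40. Gdf3, a ligand of the early epiblast, measured 4.8, 14.8 and 5.4 CPM at d4 and 4.6, 5.2 and 4.2 CPM at d4G. Its fall (-0.90 ± 0.32) rested on d4 replicate 2, without which the difference was -0.12 (edgeR FDR 0.846), and its call was also lost without any of the d4G libraries (-0.98 to -0.82). The other 6 listed ligands, Inhba and Mstn among them, did not pass the filter.

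Of 10 secreted inhibitors and cofactors tested, 4 rose and 0 fell, among them the largest rises of the pathway. Lefty1, an antagonist of Nodal, measured 3.5, 4.9 and 3.0 CPM at d4 and 66.5, 65.3 and 76.6 CPM at d4G, and its neighbour Lefty2 measured 3.9, 1.1 and 3.0 CPM at d4 and 48.5, 55.2 and 67.4 CPM at d4G. They rose by 4.15 ± 0.18 and 4.50 ± 0.27. The coding sequences of these paralogues are nearly identical, so reads could be shared between them and the split between both is uncertain. Fst, which encodes follistatin, a protein that binds and blocks activins and Gdf11, measured 5.2, 7.4 and 9.2 CPM at d4 and 42.5, 42.7 and 40.6 CPM at d4G, a rise of 2.48 ± 0.16 (edgeR FDR 2.01e-14). At d3 it had stood at 178 ± 9.87 CPM (SD, n = 3), above both later groups. Wfikkn1, a secreted inhibitor that binds Gdf11 and myostatin, measured 11.3, 11.5 and 15.8 CPM at d4 and 46.6, 48.8 and 56.9 CPM at d4G and rose by 1.97 ± 0.23. All d4G libraries lay above all d4 libraries in these 4 genes. The co-receptor Tdgf1 and the proprotein convertases Pcsk5, Pcsk6 and Furin were tested and not called.

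Of 6 receptors tested, 3 rose and 0 fell. Acvr1b, a type I receptor for Gdf11 and activin, measured 3.5, 8.2 and 5.7 CPM at d4 and 14.3, 15.3 and 20.1 CPM at d4G and rose by 1.45 ± 0.34. The type I receptor Tgfbr1 rose by 0.59 ± 0.17 and the decoy receptor Bambi by 1.11 ± 0.21. The type II receptor Acvr2b, at 232, 240.0 and 289 CPM at d4 and 198, 258 and 350.3 CPM at d4G, was not called (0.08 ± 0.13). Of the Smads that carry the signal, Smad2 rose by 1.01 ± 0.19, Smad3 was not called (0.26 ± 0.19), and the call of Smad4 (0.36 ± 0.14) was lost without d4 replicate 1 or 3 or d4G replicate 2 or 3 (0.28 to 0.40). Foxh1, the DNA-binding partner of Smad2 in the epiblast, had 13 counts over the d4 libraries and 1 over the d4G libraries, 9.82-fold lower (exact 95% interval 1.48 to 417, counting error only). Its call was lost without d4 replicate 2 (-2.27, edgeR FDR 0.166), d4G replicate 1 (-2.48) or d4G replicate 2 (-2.40), and without d4G replicate 3 the difference was -4.81.

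Of 8 intracellular inhibitors tested, 7 rose and 0 fell, with a median of 1.27. Skil, a repressor that binds Smads and is itself degraded and then re-made in response to the signal, measured 52.4, 86.9 and 63.2 CPM at d4 and 327, 359 and 404 CPM at d4G and rose by 2.41 ± 0.16 (edgeR FDR 1.71e-14). Its relative Ski measured 48.5, 40.9 and 38.7 CPM at d4 and 139, 133 and 137 CPM at d4G and rose by 1.69 ± 0.12. Pmepa1, a membrane protein that keeps Smad2 and Smad3 from the receptor, measured 4.8, 4.9 and 0.9 CPM at d4 and 53.1, 53.6 and 53.6 CPM at d4G. It rose by 3.94 ± 0.26, and d4 and d4G levels did not overlap in any of the 3 genes. Smad7, which blocks the type I receptor, rose by 1.599 ± 0.22, the ubiquitin ligases Smurf1 and Smurf2 by 0.94 ± 0.17 and 0.78 ± 0.17, and the corepressor Tgif1 by 0.47 ± 0.10. The phosphatase Ppm1a was not called (0.16 ± 0.14).

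Of 10 textbook targets tested, 7 rose and 1 fell. Junb, a subunit of the AP-1 factor, measured 7.4, 13.7 and 8.9 CPM at d4 and 64.7, 52.8 and 51.5 CPM at d4G and rose by 2.44 ± 0.22. Its groups did not overlap. Cyr61, a matricellular protein, rose by 1.40 ± 0.16, the basic helix-loop-helix repressor Bhlhe40 by 1.31 ± 0.23, the collagen gene Col1a1 by 1.95 ± 0.32 and the actin-binding Tagln by 1.21 ± 0.29. Thbs1, encoding thrombospondin, rose by 1.63 ± 0.39, and by 2.80 ± 0.48 without d4 replicate 2. Acta2, smooth muscle actin, went the other way at -0.94 ± 0.27, a call that was lost without d4G replicate 3 (-0.76, edgeR FDR 0.0569).

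**Figure D2:**
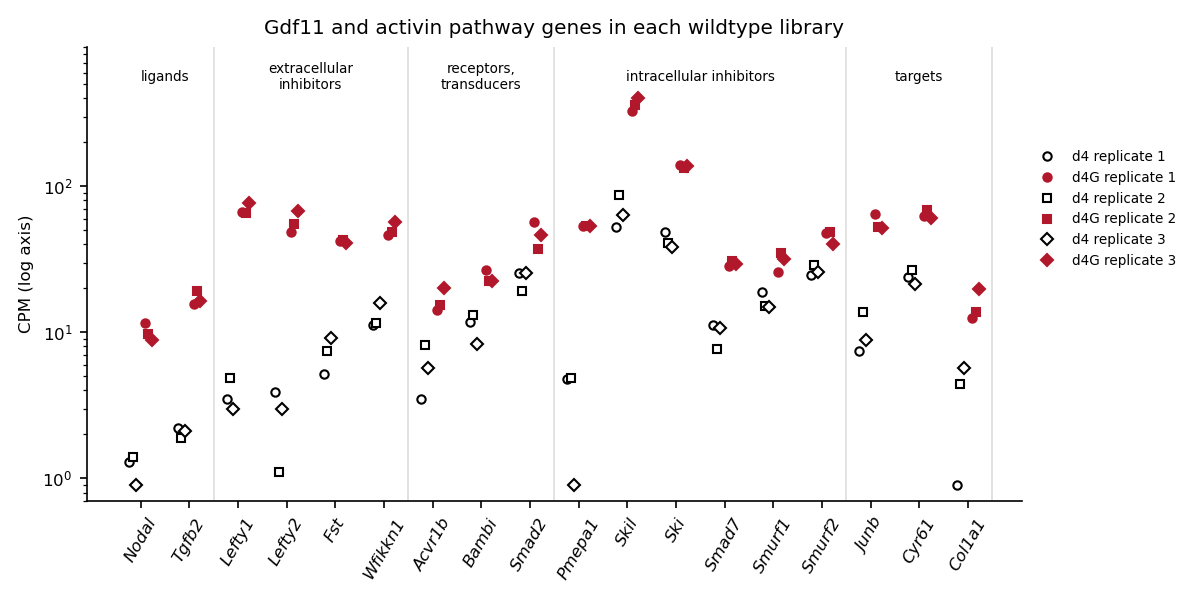
Level of 18 called Gdf11 and activin pathway genes in each wildtype d4 and d4G library, in CPM on a log axis, grouped by role, with 1 point per library. In the inhibitors Lefty1, Lefty2, Fst, Skil and Pmepa1 all 3 d4G points lie above all 3 d4 points, and Skil reaches the highest level of the genes shown.

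Promoter sequence is shown for 3 genes that rose and for Hes7, which fell most of the transcription factor genes that met the naming rule given below, because Smads bind CAGAC. Each is the 250 bases before the RefSeq start site (GRCm38.p6), written 5′ to 3′ on the strand of the gene, with CAGAC or its reverse complement GTCTG in capitals. Tgfb2 (chr1:186705990-186706239, minus strand) and Gal (chr19:3414545-3414794, minus strand) each held 2 matches, Nkd2 (chr13:73847632-73847881, minus strand), a Wnt inhibitor described below, held 1 and Hes7 (chr11:69120203-69120452, plus strand) held 0.
Tgfb2: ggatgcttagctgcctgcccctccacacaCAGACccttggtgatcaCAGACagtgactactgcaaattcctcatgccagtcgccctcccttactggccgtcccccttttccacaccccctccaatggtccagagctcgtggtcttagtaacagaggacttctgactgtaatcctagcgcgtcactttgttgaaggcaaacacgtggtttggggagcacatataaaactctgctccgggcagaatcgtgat
Gal: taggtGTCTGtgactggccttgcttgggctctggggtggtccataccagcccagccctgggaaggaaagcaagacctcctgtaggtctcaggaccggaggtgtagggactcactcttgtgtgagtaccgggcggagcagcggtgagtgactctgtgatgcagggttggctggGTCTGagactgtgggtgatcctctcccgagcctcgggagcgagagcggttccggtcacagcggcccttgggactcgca
Nkd2: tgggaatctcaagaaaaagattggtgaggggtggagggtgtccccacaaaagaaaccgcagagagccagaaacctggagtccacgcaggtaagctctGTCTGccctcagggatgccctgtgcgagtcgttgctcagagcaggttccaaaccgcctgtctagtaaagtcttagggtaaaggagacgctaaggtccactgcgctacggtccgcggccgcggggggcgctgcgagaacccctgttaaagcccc
Hes7: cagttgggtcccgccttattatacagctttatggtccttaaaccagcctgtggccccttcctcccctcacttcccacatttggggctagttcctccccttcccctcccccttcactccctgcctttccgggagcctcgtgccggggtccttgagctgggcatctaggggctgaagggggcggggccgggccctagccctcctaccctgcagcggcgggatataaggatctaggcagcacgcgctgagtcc
A match is common in sequence of this length. CAGAC on either strand was present in 42.2% of all 32851 promoters, in 39.8% of the 11285 promoters of genes tested, in 42.8% of the 456 promoters of genes that rose by more than 1 and in 34.8% of the 273 promoters of genes that fell by as much. Promoter entries matched 11 of the 28 called pathway members, of which Tgfb2 alone is shown. The 3 genes shown that rose were not picked by rule, so their matches do not tell how often rising genes hold one.

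The BMP branch, which uses other Smads, changed in both directions: of 17 genes tested 7 rose and 3 fell (6 and 3 without d4 replicate 2). The called share was 58.8%, beside 28.8% over all genes. The BMP receptor Bmpr2 rose by 1.03 ± 0.16, the transducer Smad5 by 0.99 ± 0.13, and the inhibitors Smad6 and Twsg1 by 1.51 ± 0.35 and 0.76 ± 0.19. Id3, an inhibitor of basic helix-loop-helix factors, measured 199, 176 and 192 CPM at d4 and 49.4, 42.3 and 54.4 CPM at d4G and fell by 1.95 ± 0.15 (edgeR FDR 6.76e-13). Msx1, a homeodomain repressor, measured 48.0, 43.1 and 58.4 CPM at d4 and 11.1, 11.3 and 13 CPM at d4G and fell by 2.07 ± 0.22. Their libraries were separate, with d4G the lower group. Id2 fell by 0.54 ± 0.14, whereas Tbx3, a T-box repressor of the lateral plate and limb, rose by 1.51 ± 0.17.

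The largest rises outside the Hox genes were named by rule, from genes of at least 10 CPM in either group whose libraries did not overlap and whose call held without d4 replicate 2. Gal, which encodes the neuropeptide galanin, rose most. It measured 0.4, 0.5 and 0.3 CPM at d4 and 49.0, 50.8 and 51.9 CPM at d4G, 6.72 ± 0.39 on the log2 scale (edgeR FDR 6.09e-16), and lies at chr19:3409915-3414544 on the minus strand (GRCm38). Spsb1, an adaptor of a ubiquitin ligase, measured 3.9, 0.8 and 0.9 CPM at d4 and 77.6, 79.4 and 74.9 CPM at d4G and rose by 5.53 ± 0.25. Ebf2, a transcription factor of mesenchymal and neuronal lineages, measured 0.9, 0.0 and 0.6 CPM at d4 and 18.9, 19.3 and 25.9 CPM at d4G and rose by 5.48 ± 0.49. At d4, Gal and Ebf2 were near the limit of detection in each library, and Spsb1 was so in replicates 2 and 3 but not in replicate 1 (limit 1.26 CPM). All 3 genes were clearly present in each d4G library.

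Mfap4, a glycoprotein of microfibrils, measured 4.3, 3.8 and 4.2 CPM at d4 and 108, 113 and 113 CPM at d4G, a rise of 4.76 ± 0.22. Lzts1, a leucine zipper protein, rose by 4.89 ± 0.34, the interferon-induced Oasl2 by 4.74 ± 0.53, Tmem119, a membrane protein of bone-forming cells and microglia, by 4.22 ± 0.43, and Cd40, a receptor of the tumour necrosis factor family, by 4.07 ± 0.33. The semaphorin Sema6c rose by 4.15 ± 0.55 and Rassf9 by 3.91 ± 0.39. Lefty1, Lefty2, Pmepa1 and Spaca6 were also among the 15 largest rises.

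Spaca6 encodes a sperm protein needed for fusion with the egg, and its locus (chr17:17827158-17843009, plus strand, GRCm38) also holds the hairpins of let-7e (chr17:17830352-17830444) and miR-125a (chr17:17830812-17830879) on the same strand. The let-7 family and Lin28 proteins oppose each other, Lin28 by blocking let-7 maturation and let-7 by repressing Lin28 and Hmga2, and together they form a timer of developmental stage. Spaca6 measured 2.6, 1.6 and 0.6 CPM at d4 and 58.7, 55.6 and 56.9 CPM at d4G, which did not overlap, and rose by 5.19 ± 0.35 (edgeR FDR 2.17e-14). Mature microRNAs were not measured in these libraries. RefSeq sequences (GRCm38.p6) are shown for the 5′ arms at this locus and for miR-196b, whose hairpin lies in an exon of Hoxa9 and whose family is known to act on Nr6a1, with the seed (bases 2 to 8) in capitals.
mmu-let-7e-5p: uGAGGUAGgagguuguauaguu
mmu-miR-125a-5p: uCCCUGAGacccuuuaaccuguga
mmu-miR-196b-5p: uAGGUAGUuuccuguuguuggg
Of 425 tested genes with a hairpin on their strand, 78 rose and 41 fell, and their median was 0.15. Their called share was near the 28.8% over all genes, but the split was not, as 14.3% of all genes rose and 14.5% fell.

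In the Lin28 axis, Lin28a measured 194, 219 and 197 CPM at d4 and 97.0, 86.3 and 97.1 CPM at d4G. It fell by 1.12 ± 0.10 (edgeR FDR 1.82e-11), with every d4G library below every d4 library. Its paralogue Lin28b measured 62.3, 57.0 and 64.4 CPM at d4 and 39.3, 42.7 and 36.0 CPM at d4G and fell by 0.64 ± 0.13, also without overlap. Hmga2, a chromatin protein and let-7 target, moved the other way. It measured 404, 380.1 and 522 CPM at d4 and 829.5, 799 and 978 CPM at d4G, a rise of 1.00 ± 0.12. Of 10 heterochronic genes tested, 2 rose and 3 fell (50% called, beside 28.8% over all genes, and 2 and 4 without d4 replicate 2). The others called were the RNA-binding Igf2bp3 (0.34 ± 0.09) and the DNA-binding Arid3a (-0.50 ± 0.10), and Trim71, another let-7 target, was not called (0.08 ± 0.19).

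The largest falls included the Notch targets Hes7 and Hes5. Hes7, a repressor at the core of the segmentation clock in presomitic mesoderm (chr11:69120404-69124055, plus strand, GRCm38), measured 169.6, 120.4 and 162 CPM at d4 and 11.5, 12.5 and 14.6 CPM at d4G. It fell by 3.53 ± 0.17 (edgeR FDR 7.11e-19), and the difference was -3.67 ± 0.16 without d4 replicate 2. Hes5, a Notch target of neural progenitors and the clock, measured 45.0, 35.9 and 43.5 CPM at d4 and 6.5, 4.4 and 3.8 CPM at d4G and fell by 3.08 ± 0.26. At d3 they had stood at 30.7 ± 5.26 and 3.9 ± 1.16 CPM (SD, n = 3), so that the d4 level was the high one of the 3 stages. The non-coding 9130213A22Rik, which overlaps Hes7 on the opposite strand, fell by 2.31 ± 0.38, and its reads and those of Hes7 cannot be told apart where strand was not used (its use is not given in the sources used here).

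Presomitic and somite genes, Hes7 included, fell and did not rise. Of 16 tested, 0 rose and 11 fell (0 and 9 without d4 replicate 2), with a median of -0.86. The called share was 68.75%, beside 28.8% over all genes. Dll1, the Notch ligand of presomitic mesoderm, measured 133, 104 and 134 CPM at d4 and 64.7, 65.3 and 86.2 CPM at d4G and fell by 0.77 ± 0.14. Rspo3, a secreted enhancer of Wnt signalling, fell by 0.95 ± 0.13, Aldh1a2, the enzyme that makes retinoic acid in somites, by 1.52 ± 0.31, and Foxc2, a forkhead factor of paraxial mesoderm, by 2.25 ± 0.43. Tbx6, the T-box factor that defines presomitic mesoderm, measured 93.5, 88.3 and 103 CPM at d4 and 67.9, 84.2 and 74.1 CPM at d4G. Its fall was small at -0.33 ± 0.12, and the call was lost without d4 replicate 1 or 3 or d4G replicate 1 or 3 (-0.34 to -0.25). Msgn1, the other defining marker, did not pass the filter. In bulk RNA, fewer cells of a type and less RNA per cell cannot be told apart.

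Of 15 genes of the Notch pathway tested, 5 rose and 4 fell (60% called, beside 28.8% over all genes), Hes5, Hes7 and Dll1 among the falls. Hes1, a Notch effector of many tissues, measured 190.0, 184 and 174 CPM at d4 and 604, 598 and 574 CPM at d4G and rose by 1.70 ± 0.09 (edgeR FDR 7.77e-17), opposite to Hes5 and Hes7. The related Hey1 and Hey2 rose by 1.35 ± 0.23 and 2.57 ± 0.37, and the receptors Notch2 and Notch3 by 1.31 ± 0.30 and 1.43 ± 0.17. Notch1 was not called (-0.08 ± 0.35).

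FGF ligands fell in 6 of 9 cases (5 without d4 replicate 2) and rose in 1, with a median of -1.54. The called share was 77.8%, beside 28.8% over all genes. Fgf8, the ligand of the posterior growth zone that keeps progenitors undifferentiated, measured 148, 120.4 and 137 CPM at d4 and 54.0, 45.1 and 39.8 CPM at d4G and fell by 1.54 ± 0.14 (edgeR FDR 4.94e-11). Fgf4, its partner in the same domain, measured 12.5, 21.1 and 14.9 CPM at d4 and 2.3, 1.6 and 0.8 CPM at d4G and fell by 3.36 ± 0.33. Fgf3 measured 35.5, 36.5 and 36.4 CPM at d4 and 11.1, 8.1 and 8.4 CPM at d4G and fell by 1.98 ± 0.19. In each, d4G lay below d4 without overlap. Fgf9 and Fgf15 fell by 1.26 ± 0.24 and 1.92 ± 0.31, and Fgf17, a close relative of Fgf8, was the ligand that rose. It measured 46.3, 33.7 and 44.7 CPM at d4 and 102, 91.5 and 93.3 CPM at d4G (1.21 ± 0.13). The receptor Fgfr1 rose by 1.08 ± 0.13. Targets of the ERK kinases downstream did not follow 1 direction, with 3 of 16 higher and 4 lower (43.75% called, beside 28.8% over all genes). The immediate early genes Egr1 and Ier2 rose by 0.73 ± 0.13 and 0.75 ± 0.11, the feedback inhibitor Il17rd rose by 1.17 ± 0.18, the ETS factor Etv5 fell by 0.68 ± 0.17, and Spry2 was not called (0.02 ± 0.19).

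**Figure D3:**
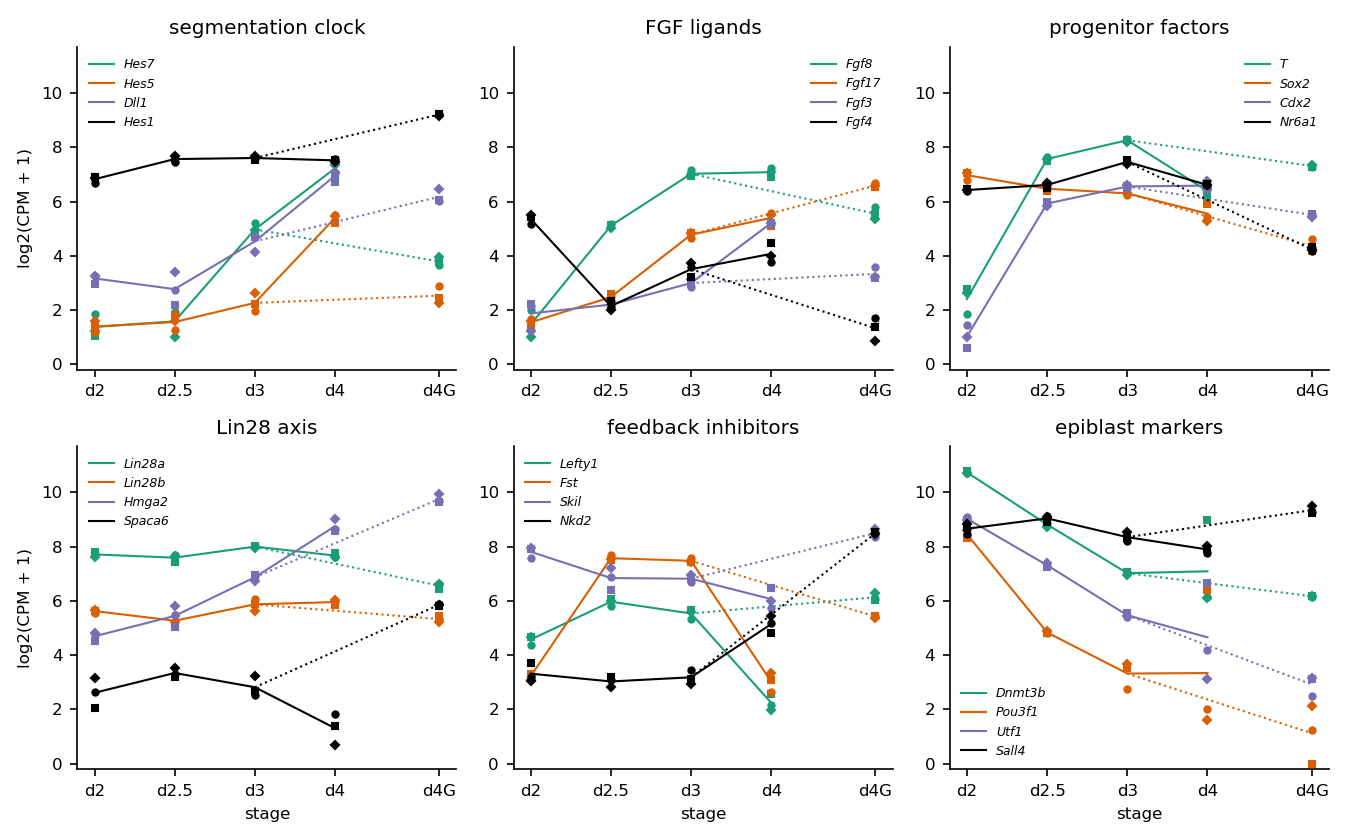
Level of 24 genes across stages of wildtype cells as log2(CPM + 1), with 1 point per library (circle, square and diamond for replicates 1, 2 and 3), solid lines joining the means from d2 to d4 and dotted lines from d3 to d4G. Hes7, Hes5, Fgf3 and Dll1 are higher at d4 than at d3 and lower at d4G, Nkd2 and Spaca6 are highest at d4G, and the square of d4 replicate 2 stands above the other d4 points for Dnmt3b, Pou3f1 and Utf1.

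Wnt signalling genes rose more often than they fell although CHIR99021 was present in both groups. Of 9 Wnt ligands tested, 6 rose and 1 fell (7 and 1 without d4 replicate 2), with a median of 0.99. The called share was 77.8%, beside 28.8% over all genes. Wnt5b measured 32.9, 25.8 and 25.6 CPM at d4 and 78.5, 71.7 and 69.5 CPM at d4G and rose by 1.40 ± 0.12, Wnt3, which starts gastrulation, by 1.501 ± 0.28, and Wnt5a, a ligand of axis elongation, by 0.76 ± 0.16. Wnt3a, which maintains tail progenitors, rose by 1.14 ± 0.30, and Wnt6 by 0.99 ± 0.20. Among 18 targets and feedback genes, 7 rose and 2 fell (50% called, and 6 and 1 without d4 replicate 2). Nkd2, a cytoplasmic inhibitor of Dishevelled, measured 35.5, 26.9 and 42.9 CPM at d4 and 362, 369 and 351 CPM at d4G, a rise of 3.37 ± 0.13 (edgeR FDR 6.42e-21) without overlap. Its paralogue Nkd1 rose by 0.76 ± 0.11, the secreted antagonist Dkk1 by 1.48 ± 0.12, the ubiquitin ligase Znrf3 by 1.17 ± 0.13, and the direct targets Axin2 and Lef1 by 0.69 ± 0.10 and 0.47 ± 0.09. Sfrp1, a secreted antagonist, fell by 0.57 ± 0.14, and the target Sp5 was not called (0.11 ± 0.10).

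Genes of the NMP state split evenly, with 9 of 25 higher and 9 lower (72% called, beside 28.8% over all genes). T, the Brachyury factor of primitive streak and tail mesoderm, measured 89.6, 73.8 and 85.8 CPM at d4 and 155, 156 and 164 CPM at d4G and rose by 0.94 ± 0.11 (edgeR FDR 1.24e-08). It had stood at 307 ± 11.1 CPM (SD, n = 3) at d3, above both d4 groups. Sox2, the neural and pluripotency factor co-expressed with T in NMPs, measured 42.4, 59.8 and 38.4 CPM at d4 and 23.6, 16.9 and 18.4 CPM at d4G and fell by 1.27 ± 0.17. In both genes the groups were separate. The caudal factor Cdx2 fell by 1.10 ± 0.13 and Cdx4 rose by 0.44 ± 0.10, while Cdx1 was not called (-0.18 ± 0.12). Evx1, a homeodomain factor of the streak, rose by 0.94 ± 0.18, Sp8, a zinc finger factor, fell by 1.07 ± 0.21, and the NMP marker Nkx1-2 was not called (-0.27 ± 0.23). Greb1 rose by 0.99 ± 0.12, whereas Epha5, an ephrin receptor, and the RNA-binding Grsf1 fell by 2.19 ± 0.20 and 0.57 ± 0.12.

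Nr6a1, the orphan nuclear receptor that the study centres on (chr2:38723370-38927688, minus strand, GRCm38), measured 96.1, 98.7 and 96.0 CPM at d4 and 17.1, 18.9 and 17.6 CPM at d4G, which did not overlap, and fell by 2.43 ± 0.15 (edgeR FDR 2.2e-15). Of 15 nuclear receptor genes tested, 3 rose and Nr6a1 was the 1 that fell (26.7% called, near the 28.8% over all genes). Rora, a clock-related receptor, rose by 2.22 ± 0.25 and Nr2f2, a receptor of venous and mesenchymal cells, by 0.77 ± 0.19. The antisense transcript Nr6a1os measured 1.3, 2.5 and 1.8 CPM at d4 and 9.2, 10.5 and 10.5 CPM at d4G and rose by 2.36 ± 0.32. It overlaps Nr6a1 on the opposite strand, and whether counting took strand into account is not given in the sources used here.

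Neural progenitor genes fell in 11 of 24 cases and rose in 1 (50% called, beside 28.8% over all genes), with a median of -1.06. Without d4 replicate 2, 6 fell, 1 rose and 17 of the 24 were not called, with a median of -0.63. Over all genes 23.3% were called in that setting, so several calls of this list and part of its median rested on that library. In Nr6a1-/- cells, whose d4 and d4G libraries are other ones, 0 rose and 10 fell in this list, with a median of -0.66. Prtg, a cell surface receptor of the early neural tube and posterior mesoderm, measured 1535, 1476 and 1809 CPM at d4 and 366, 398 and 432 CPM at d4G and fell by 2.01 ± 0.10 (edgeR FDR 1.37e-17), without overlap. Zic1, a zinc finger factor of the dorsal neural tube, fell by 0.99 ± 0.24 and Irx3, a homeodomain factor of the intermediate neural tube, by 1.19 ± 0.28. Hes3, a repressor of neural stem cells, had 13 counts over the d4 libraries and 0 over the d4G libraries, at least 3.27-fold lower when 3 counts over the group are taken as the limit of a count of 0. Nkx6-1, a ventral neural factor, was the member that rose (1.53 ± 0.38). Sox1, a defining neural marker, was below 3 CPM in all 6 libraries, as were Neurog1 and Neurog2. Foxb1, a forkhead factor of the neural tube that was named by rule, measured 125, 116 and 125 CPM at d4 and 24.0, 28.2 and 23.0 CPM at d4G and fell by 2.27 ± 0.16.

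Retinoid genes changed in both directions. Crabp2, which carries retinoic acid to its receptor, measured 164, 139 and 159 CPM at d4 and 59.1, 57.6 and 59.4 CPM at d4G and fell by 1.39 ± 0.12 (edgeR FDR 7.08e-11), without overlap. Its relative Crabp1 rose by 0.71 ± 0.08, as did Stra6, the receptor for retinol uptake (1.28 ± 0.14). The retinoic acid receptor Rarg was not called (-0.11 ± 0.13).

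Of 23 matrix genes tested, 12 rose and 0 fell (10 and 0 without d4 replicate 2), with a median of 0.52. The rises lay mostly in the interstitial matrix, where 9 of 11 rose (7 without d4 replicate 2) with a median of 1.03, while in the basement membrane 3 of 12 rose (25.0%, beside 28.8% called over all genes) with a median of 0.20. Col2a1, the cartilage collagen, measured 15.6, 11.5 and 14.6 CPM at d4 and 56.8, 58.4 and 49.0 CPM at d4G and rose by 1.99 ± 0.21. Emilin1, a glycoprotein of elastic fibres, measured 8.2, 4.9 and 4.5 CPM at d4 and 35.1, 36.3 and 32.6 CPM at d4G and rose by 2.61 ± 0.21. No d4 library reached a d4G library in these genes. Vcan, the proteoglycan versican, rose by 1.03 ± 0.11, fibrillin-2 (Fbn2) by 1.39 ± 0.18, fibronectin (Fn1) by 0.73 ± 0.10 and the fibrillar collagen Col11a1 by 0.80 ± 0.22. Of 10 mesenchymal markers, 5 rose and 0 fell. The cadherin Cdh11 rose by 2.55 ± 0.26, the zinc finger repressors Snai1 and Zeb1 by 1.44 ± 0.23 and 0.77 ± 0.15, and vimentin (Vim) by 0.40 ± 0.10. N-cadherin (Cdh2) was not called (0.11 ± 0.12).

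The 5 epithelial genes called lower, among 13 tested, were Cdh1, Cldn6, Cldn7, Esrp1 and Grhl2, and without d4 replicate 2 none of the 5 was called. The call of Cldn6 was also lost without d4 replicate 1 or d4G replicate 1 or 3 (-0.48 to -0.42), that of Esrp1 without any of the d4G libraries (-1.31 to -0.83) and that of Grhl2 without d4G replicate 1 or 2 (-1.77 and -1.68). For Cdh1, E-cadherin, the levels were 22.1, 56.8 and 22.1 CPM at d4 and 17.1, 19.3 and 19.7 CPM at d4G, and the difference went from -0.89 ± 0.23 to -0.23 ± 0.17 (edgeR FDR 0.373). Among genes of the cytoskeleton, Actb, cytoplasmic actin, measured 4861, 5850.3 and 7356 CPM at d4 and 10273, 12617 and 16229 CPM at d4G and rose by 1.11 ± 0.20. Tpm1, a tropomyosin, measured 481, 427 and 425 CPM at d4 and 1458, 1472 and 1416 CPM at d4G, a rise of 1.71 ± 0.07 (edgeR FDR 6.27e-20). Neither overlapped. The beta-tubulin Tubb5 rose by 0.49 ± 0.12 and Dpysl2, a regulator of microtubules in growth cones, by 1.13 ± 0.14. Actb and the tubulins have processed pseudogenes with which reads may be shared.

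Signals of cell guidance rose more often than they fell, 16 higher and 5 lower of 38 tested (14 and 5 without d4 replicate 2). The called share was 55.3%, beside 28.8% over all genes. Of 16 Eph receptors and ephrins, 8 rose and 1, Epha5, fell (7 and 1 without d4 replicate 2). Epha2 rose by 2.03 ± 0.18, Ephb3 rose by 1.94 ± 0.25 and Ephb4 by 1.11 ± 0.22. Robo2, a receptor for Slit proteins, measured 3.9, 3.8 and 7.2 CPM at d4 and 28.2, 28.2 and 29.3 CPM at d4G and rose by 2.49 ± 0.27, and its ligand Slit2 rose by 1.81 ± 0.38. Slit1 had 3 counts over the d4 libraries and 51 over the d4G libraries, 22.5-fold higher (exact 95% interval 7.28 to 113, counting error only). The netrin receptor Unc5b rose by 1.83 ± 0.17.

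The secreted semaphorins Sema3a and Sema3c went the other way. Sema3a, a repellent of axons and migrating cells, measured 33.3, 33.2 and 29.5 CPM at d4 and 4.6, 4.8 and 2.9 CPM at d4G and fell by 2.94 ± 0.29, and Sema3c fell by 2.04 ± 0.40. Within Sema3a (chr5:13125414-13602565, plus strand) lies the unnamed transcript Gm42680 (chr5:13133459-13135958, minus strand), which had 91 counts over the d4 libraries and 1 over the d4G libraries, 68.7-fold lower (exact 95% interval 12.0 to 2745, counting error only). Without known use of strand these reads and those of Sema3a cannot be told apart. Nrp2, a co-receptor for class 3 semaphorins, rose by 0.79 ± 0.11, and Plxna2, a plexin receptor, fell by 0.70 ± 0.19.

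The remaining large falls named by rule were of varied roles. Mgst1, a membrane-bound glutathione transferase, measured 202, 171 and 198 CPM at d4 and 23.6, 26.6 and 20.9 CPM at d4G and fell by 2.998 ± 0.12 (edgeR FDR 2.75e-20). Myl1, a myosin light chain of skeletal muscle, fell by 2.34 ± 0.31. The small nucleolar RNA Snord49b fell by 2.53 ± 0.47 and the non-coding Gm26641 fell by 2.497 ± 0.42. Of 8 mitochondrial protein-coding genes tested, 1 rose and 3 fell (1 and 2 without d4 replicate 2, 2 and 1 under scaling by library totals). Of these mt-Nd3, a subunit of complex I, fell by 2.60 ± 0.34 and mt-Cytb, a subunit of complex III, measured 4970.0, 4757 and 4815 CPM at d4 and 7407, 6670.5 and 6678 CPM at d4G and rose by 0.51 ± 0.08. The 13 protein-coding mitochondrial genes took up 1.31%, 1.28% and 1.25% of counts at d4 and 1.58%, 1.497% and 1.46% at d4G.

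Imprinted genes rose in 8 of 23 cases and fell in 3 (47.8% called, beside 28.8% over all genes, and 7 and 3 without d4 replicate 2). H19, a maternally expressed non-coding RNA that holds miR-675 (chr7:142575529-142578143, minus strand, GRCm38), measured 113, 101 and 113 CPM at d4 and 599.5, 624 and 613 CPM at d4G. It rose by 2.49 ± 0.11 (edgeR FDR 5.46e-20), and at d3 it had stood at 11.4 ± 1.33 CPM (SD, n = 3). Phlda2, a growth restrictor of the placenta, measured 435, 387 and 443 CPM at d4 and 97.9, 115 and 120.1 CPM at d4G and fell by 1.92 ± 0.10. Neither had overlapping libraries. The growth restrictors Grb10 and Igf2r rose by 0.92 ± 0.08 and 0.90 ± 0.18, the notch-like Dlk1 by 1.76 ± 0.25, the growth factor Igf2 by 1.59 ± 0.39, the cyclin-dependent kinase inhibitor Cdkn1c by 0.89 ± 0.12 and the antisense RNA Kcnq1ot1 by 0.76 ± 0.13. Snrpn, a splicing protein, fell by 1.04 ± 0.19, with -0.60 ± 0.16 left without d4 replicate 2.

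Btg2, an antiproliferative factor and p53 target, measured 111, 97.9 and 109.7 CPM at d4 and 686, 755 and 740.4 CPM at d4G and rose by 2.78 ± 0.09 (edgeR FDR 6.53e-23). Cdkn1a, the p21 inhibitor of cyclin-dependent kinases, measured 315, 252 and 255 CPM at d4 and 487, 553 and 464 CPM at d4G and rose by 0.88 ± 0.09. Their d4G libraries all lay above d4. Of 17 p53 targets tested, these 2 included, 3 rose and 1 fell (23.5% called, beside 28.8% over all genes), and Mdm2 was not called (-0.08 ± 0.10). Within the cell cycle list of 33 tested genes, 5 rose and 7 fell (36.4% called), with 4 and 4 without d4 replicate 2, and 7 and 4 under scaling by library totals. The kinase Cdk1 fell by 0.57 ± 0.10, the replication genes Mcm2 and Pcna by 0.58 ± 0.09 and 0.52 ± 0.08, and the mitotic activator Cdc20 by 0.50 ± 0.10. Top2a, a topoisomerase of cycling cells, was not called (0.04 ± 0.07). Of 10 genes of the Myc family tested, 2 rose and 2 fell, with or without d4 replicate 2 (40% called, median 0.21). Among them the growth-promoting factors Myc and Mycn fell by 1.00 ± 0.21 and 0.70 ± 0.13.

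Of 89 listed genes of cytoplasmic ribosomal proteins, 86 were tested, 0 rose and 80 fell, with a median of -0.60 and no overlap between groups for 79 of them. The counts without d4 replicate 2 were the same, and 78 fell under scaling by library totals. Together these genes took up 16.4%, 16% and 16.4% of counts at d4 and 11.8%, 11.6% and 11.6% at d4G. All d4G shares lay below all d4 shares. Rps26 measured 3797, 3592 and 3654 CPM at d4 and 1889, 1903 and 1811 CPM at d4G and fell by 0.98 ± 0.13, Rplp0 fell by 0.69 ± 0.10 and Rps14 by 0.47 ± 0.11. Npm1, a nucleolar chaperone of ribosome assembly, measured 4144, 3883 and 3896 CPM at d4 and 2283, 2093 and 2132 CPM at d4G and fell by 0.87 ± 0.09. Many of these genes have processed pseudogenes, so that single values are less certain than their common direction.

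Among metabolic genes, Slc2a1, the main glucose transporter of dividing cells, measured 263, 287 and 239.9 CPM at d4 and 85.9, 74.6 and 71.2 CPM at d4G and fell by 1.77 ± 0.11 (edgeR FDR 9.18e-16), without overlap. Of 22 genes of glycolysis and hypoxia tested 2 rose and 5 fell (31.8% called, near the 28.8% over all genes, and 1 and 5 without d4 replicate 2). Gapdh and Tpi1 fell by 0.67 ± 0.10 and 0.74 ± 0.13, while the pyruvate kinase Pkm was not called (0.03 ± 0.06). In sterol and fatty acid synthesis 6 of 26 rose and 2 fell (30.8% called, also near that share, and 6 and 1 without d4 replicate 2). The sterol sensor Insig1 rose by 1.21 ± 0.27.

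Of 34 Hox genes tested, 20 rose and 1 fell (61.8% called, beside 28.8% over all genes, and 18 and 1 without d4 replicate 2). The change was largest in groups 10 to 13, of which 9 of 10 rose (8 without d4 replicate 2). Hoxc10 measured 3.5, 1.9 and 1.5 CPM at d4 and 274, 276 and 288 CPM at d4G and Hoxd11 0.4, 0.8 and 0.0 CPM at d4 and 117, 136 and 132 CPM at d4G. Hoxc11 went from 1 count over the d4 libraries to 279 over the d4G libraries, 369-fold higher (exact 95% interval 65.7 to 14638, counting error only), and the non-coding Hotair from 0 to 26, at least 11.5-fold higher against a limit of 3 counts over the group. Hoxa9, the host of miR-196b, rose by 2.01 ± 0.14, and Hoxb9 was the member that fell (-0.73 ± 0.14).

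**Figure D4:**
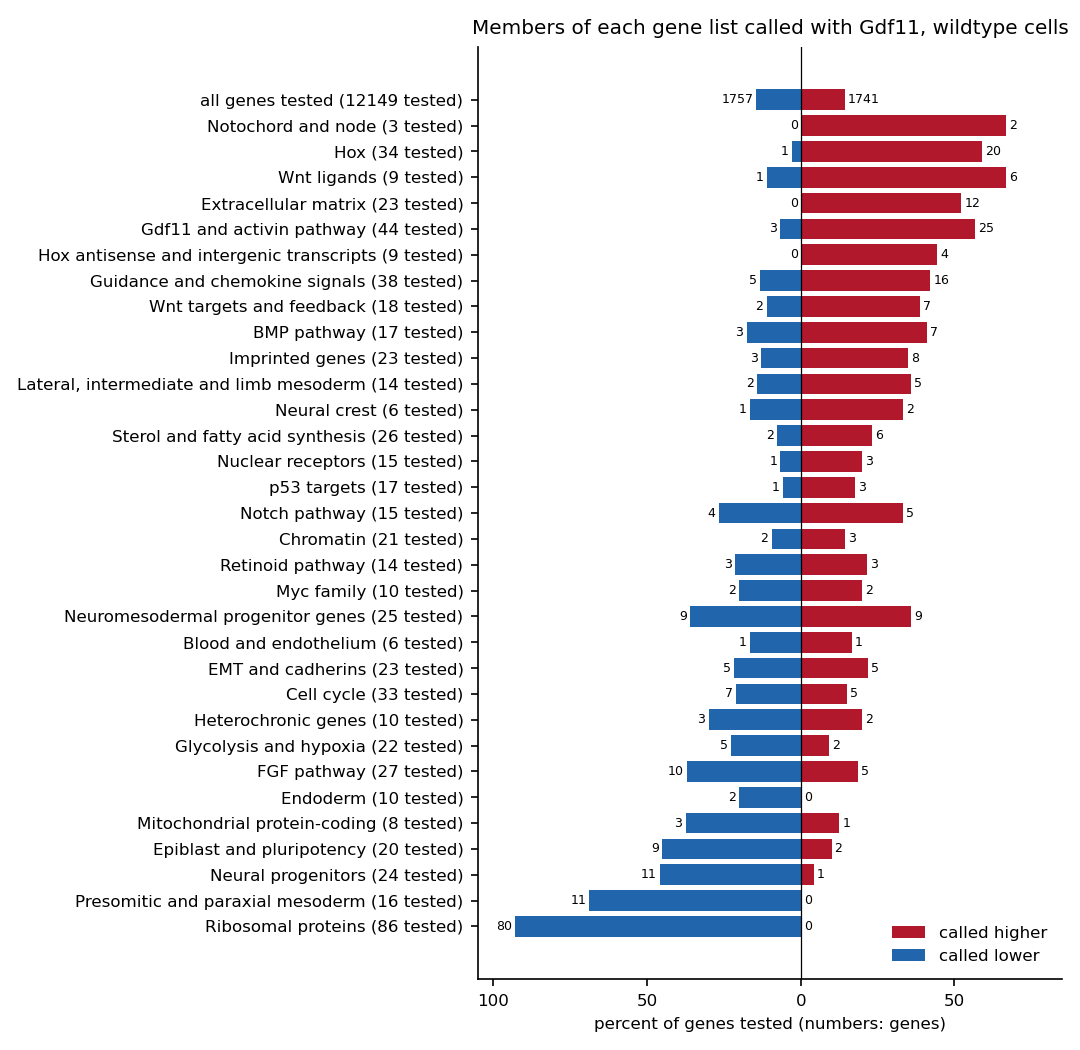
Percent of tested members of each gene list called higher (right, red) and lower (left, blue) with Gdf11, with the numbers of genes at the bars and all 12149 genes tested at the top. Ribosomal protein genes (0 higher, 80 lower) and presomitic and paraxial mesoderm (0 higher, 11 lower) lie at the lower end, and Hox genes, Wnt ligands, extracellular matrix and the Gdf11 and activin pathway at the upper end.

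Markers of other cell types were counted beside these results. The 10 neural crest genes summed to 31.0 to 38.1 CPM at d4 and 95.8 to 118 CPM at d4G, and the rise lay in Sox9 (2.01 ± 0.23) and Ets1 (2.54 ± 0.24), which other lineages also express, while the defining Sox10, Tfap2a, Tfap2b and Foxd3 stayed below 3 CPM in all 6 libraries. The 8 notochord and node genes summed to 91.6 to 109 CPM and 207 to 217 CPM, with T and Sox9 called higher and Noto and Shh at 0. The 18 endoderm genes summed to 128 to 190 CPM and 100 to 127 CPM, with Cer1, Prss1 and Shh at 0, 8 members below 3 CPM and Spink1, a secreted protease inhibitor, lower by 1.68 ± 0.20. The 14 blood and endothelium genes summed to 170 to 239 CPM and 176 to 224 CPM, with 8 members including Kdr and Gata1 below 3 CPM, the haematopoietic factor Runx1 higher by 2.53 ± 0.26 and Etv2 lower by 1.61 ± 0.34. Of 14 lateral, intermediate and limb genes tested, 5 rose and 2 fell, with or without d4 replicate 2 (50% called, beside 28.8% over all genes). The falls were those of Msx1, described above, and of Prrx2, a homeodomain factor of limb mesenchyme (-1.38 ± 0.33). Among the rises, the forkhead factor Foxf1 measured 1.7, 7.7 and 11 CPM at d4 and 21.7, 25.8 and 57.8 CPM at d4G and rose by 2.27 ± 0.39, and the hindlimb factor Pitx1 measured 10.4, 14.8 and 10.4 CPM at d4 and 33.7, 23.0 and 28.5 CPM at d4G and rose by 1.23 ± 0.24. The part of other cell types in these changes was not tested.

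Of the 20 epiblast and pluripotency genes, 2 rose and 9 fell (55% called, beside 28.8% over all genes), and 2 rose and 4 fell without d4 replicate 2. Dnmt3b, a DNA methyltransferase of the epiblast, measured 70.5, 512 and 68.2 CPM at d4 and 70.7, 71.7 and 71.2 CPM at d4G. Only d4 replicate 2 stood apart, and without it the difference went from -1.64 ± 0.37 to 0.04 ± 0.10 (edgeR FDR 0.82). The calls of the epiblast genes Otx2 (-0.24 without that library), Fgf5 (-0.23), Pou3f1 (-0.64), Slc7a3 (-0.60) and, in the neural list, Zic2 (-0.83) and Zic5 (0.22) were lost in the same way, and that of Zic5 also without d4G replicate 1 (-1.44). Those of Utf1 (-2.67 ± 0.51 and -0.79 ± 0.27 without it), L1td1 (-2.04 ± 0.37 and -0.86 ± 0.23) and Dppa4 (-1.26 ± 0.20 and -0.85 ± 0.18) held. Sall4, a zinc finger factor of pluripotent and tail progenitor cells, measured 216, 238 and 261 CPM at d4 and 626, 605 and 724 CPM at d4G and rose by 1.45 ± 0.12.

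The same treatment of Nr6a1-/- cells, whose libraries are not shared with the wildtype comparison, called 2191 genes (18.0%), 1026 higher (8.45%) and 1165 lower (9.59%). Of these, 1330 were called in the same direction in wildtype cells, 38.0% of the wildtype calls and 60.7% of the Nr6a1-/- calls, and 33 in the opposite direction. In these cells Nr6a1 transcripts were still counted, at 221 ± 32.7 CPM at d4 and 28.4 ± 9.44 CPM at d4G (SD, n = 3). The deletion took out the DNA-binding domain and the reads come from the 3′ end, outside it, so that this level does not check the genotype. A difference in response between genotypes was called for 323 genes (2.66%), 225 of them called in wildtype cells. That count rested on 1 library more than on any other: without Nr6a1-/- d4 replicate 1 it was 830, without Nr6a1-/- d4 replicate 3 it was 205, and without any other of the 12 libraries it was 244 to 279. Ribosomal protein genes took up 16.9% of counts in Nr6a1-/- d4 replicate 1, 13.01% and 12.3% in the other Nr6a1-/- d4 libraries and 12.3% to 12.5% at Nr6a1-/- d4G, and the part of this library in the differences was not tested. Among the 40 genes that met the naming rule, 33 were called in the same direction in Nr6a1-/- cells and 7 had a called difference.

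Several feedback genes of the pathway were among those that differed. Fst rose in wildtype cells (2.48 ± 0.16) and fell in Nr6a1-/- cells (-0.92 ± 0.13), a difference of -3.40 ± 0.21 (edgeR FDR 7.99e-14). Tgfb2 and Wfikkn1 rose in wildtype cells and measured 0.23 ± 0.49 and -0.15 ± 0.41 in Nr6a1-/- cells, differences of -2.81 ± 0.65 and -2.12 ± 0.48. The first of these calls was lost without Nr6a1-/- d4 replicate 3 and the second without Nr6a1-/- d4 replicate 2, with -3.12 to -2.40 and -2.77 to -1.71 over the libraries left out in turn. Lefty2, Lefty1 and Smad7 rose in both genotypes and by 3.22, 1.82 and 2.24 more on the log2 scale in Nr6a1-/- cells. Sox9 rose in wildtype cells by 2.01 ± 0.23 and measured -0.05 ± 0.26 in Nr6a1-/- cells, a difference of -2.06 ± 0.35. By contrast Hes7, Fgf4, Nkd2 and Ski had no called difference, with -3.40 ± 0.16, -3.73 ± 0.20, 3.82 ± 0.13 and 1.64 ± 0.13 in Nr6a1-/- cells.

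**Figure D5:**
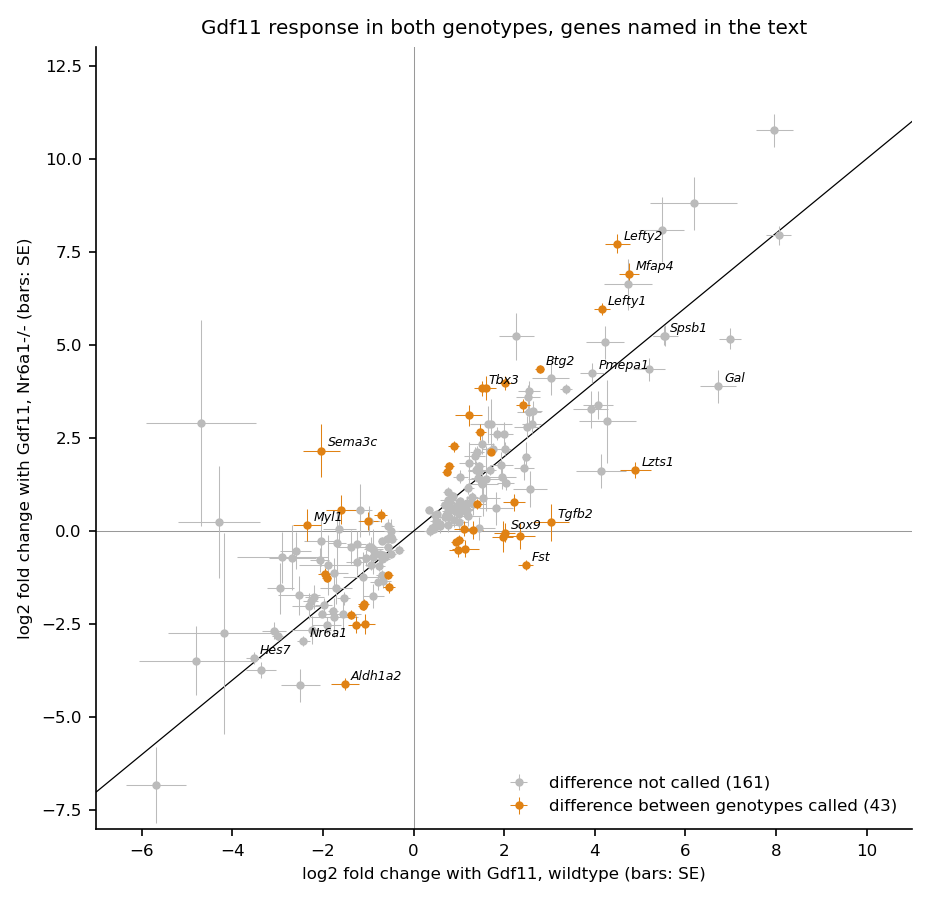
Log2 fold change with Gdf11 in wildtype (x axis) and Nr6a1-/- cells (y axis) for called genes named in the text, with bars of 1 SE and genes whose difference between genotypes was called in orange. Hes7, Spsb1 and Pmepa1 lie near the line of equal response, while Fst lies to the right of 0 and below 0 and Lefty2 lies above the line.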

How the data were processed

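RNA was measured in 30 libraries of ES-Bruce4 cells, of which 6, the 3 d4 and 3 d4G wildtype libraries, were compared. Reads were primed at the poly(A) tail, so that they come from the 3′ end of transcripts, with an index and a molecular identifier added at priming. The authors deposited 1 table of counts per gene, with 54134 gene names and no normalisation. The submitters' processing notes name STAR, edgeR and mm10. The sources used here give neither the counting tool nor its strand setting, and do not say if reads sharing an identifier were merged. Tables of the authors' own genotype comparisons (log2 fold changes and p-values) were deposited too and not used.

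A gene was tested if 2 or more libraries of any 1 group exceeded both 10 counts and 2 CPM. This held for 12149 genes, which carried at least 99.2% of the counts of each library. The 10 groups were fitted in 1 model without other covariates (edgeR 4.0.16 in R 4.3.3, TMM factors, quasi-likelihood test, 20 residual degrees of freedom), and the contrast was d4G minus d4. P-values were adjusted over all genes by the Benjamini-Hochberg method, and each SE was derived from the log2 fold change and its F statistic (their ratio after taking the root of F). CPM values use TMM-scaled totals without a prior count. Library totals were 2383076 to 3688197 counts at d4 and 2081207 to 2365945 at d4G, so that a count of 0 allows up to 3 counts, or 0.813 to 1.44 CPM, and the intervals given cover counting error only. No 2 libraries of a group agreed within sampling noise (chi-square of 1.92 to 3.80 per gene), so none was taken as the same library deposited again. This does not show that they came from separate cultures.

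Genes were named by rule when their mean reached 10 CPM in either group, the libraries did not overlap, they were not Hox genes and the call held without d4 replicate 2. The 15 largest rises and 15 largest falls by log2 fold change and the 5 largest of each by difference in CPM were taken. Members of gene lists were named for their role. Some genes that meet the rule or stand in the lists are not reported here. The genes and lists were chosen with earlier results of these data known. Alternatives were DESeq2 1.42.0, RLE factors, library totals alone, no filter on low counts, the 6 libraries alone, a replicate block, counts thinned to the smallest total (1570714) and each of the 6 libraries left out. Leaving out each Nr6a1-/- d4 and d4G library was added after seeing the data. Gene positions are from GENCODE M21 (GRCm38), promoters and microRNAs from RefSeq (GRCm38.p6).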

Additional observations from a re-analysis of the deposited data

Results flagged for a closer look

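Of the 204 described genes whose change with Gdf11 was called in wildtype cells, 43 differed between wildtype and Nr6a1-/- cells. The test was edgeR's quasi-likelihood test of the interaction (FDR below 0.05). Over all genes, 225 of the 3498 wildtype calls differed, a smaller share, and the described genes were chosen with earlier results of these data known. Values are the log2 fold change in Nr6a1-/- cells minus that in wildtype cells. Of the 43 differences, 36 were still called without wildtype d4 replicate 2, and 28 were called whichever of the 12 libraries was left out.

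In the Gdf11 and activin pathway the difference was -2.81 for Tgfb2, -3.40 for Fst, -2.12 for Wfikkn1 and -1.28 for Bhlhe40, and 1.82 for Lefty1, 3.22 for Lefty2, 0.97 for Skil, 2.24 for Smad7 and 1.90 for Tagln. In the BMP branch it was 0.81 for Id3, -0.97 for Id2 and 2.33 for Tbx3.

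Among patterning genes, the difference was -0.68 for Wnt5b, -1.61 for Wnt3a, -1.50 for Wnt6 and 1.19 for the Wnt antagonist Dkk1. The NMP genes T, Sox2, Cdx2, Sp8, Greb1 and Grsf1 differed by -1.22, -1.24, -0.87, -1.43, -1.23 and -0.61, and the Hox genes Hoxa9 and Hoxb9 by 1.97 and 1.15. T, Greb1, Wnt3a and Wnt6 rose in wildtype cells and measured below 0 in Nr6a1-/- cells (-0.29, -0.24, -0.47 and -0.51). In retinoid and nuclear receptor genes the difference was -2.59 for Aldh1a2, -0.86 for Crabp2, -1.44 for Rora and -2.49 for Nr6a1os, and Lin28a differed by -0.88.

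In matrix, cytoskeleton and guidance genes the difference was 0.87 for Fn1, 0.41 for Tpm1, 2.15 for Mfap4, -1.04 for Ephb4, 4.20 for Sema3c and 0.96 for Nrp2. Sema3c fell by 2.04 in wildtype cells and rose by 2.16 in Nr6a1-/- cells. Among the others it was -3.26 for Lzts1, 2.51 for Myl1, 0.66 for Phlda2, 1.39 for Cdkn1c, 1.57 for Btg2, 1.26 for Myc, -2.06 for Sox9 and 2.18 for Etv2. The calls lost without wildtype d4 replicate 2 were those of Skil (0.74), Bhlhe40 (-1.21), Tagln (1.44), Wnt5b (-0.62), Grsf1 (-0.59), Ephb4 (-1.10) and Etv2 (1.83). A further 8 calls were lost without some other library. Over the 12 libraries left out in turn, the difference of Id3 was 0.64 to 1.16 and was not called without 8 of them. It was -3.12 to -2.40 for Tgfb2, -2.77 to -1.71 for Wfikkn1, 1.64 to 3.25 for Mfap4, -1.47 to -1.02 for Sox2, -1.95 to -1.14 for Sp8, 0.35 to 0.49 for Tpm1 and 1.15 to 1.44 for Myc, each lost without 1 to 5 libraries.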

How the results depend on the processing

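The count of 3498 called genes was 2960 by DESeq2, 3479 with RLE factors, 3630 with library totals alone, 3098 without a filter, 3310 with the 6 libraries alone, 4231 with those and a replicate block, 3563 with a replicate block in the whole model and 2701 after thinning. Leaving out 1 wildtype library gave 2769 to 3086 calls (1373 to 1530 higher, 1350 to 1593 lower). Deviations of same-numbered d4 and d4G libraries had r = 0.117, 0.0019 and 0.163 across genes for replicates 1, 2 and 3. For unlike numbers r was -0.1451 to 0.0242, and it was lowest between replicates 1 and 3 (-0.1451 and -0.1325). The main fit did not take the numbers as pairs, and whether they mark pairs was not tested. The replicate block in the whole model changed no call of a gene described. With the 6 libraries alone, the fit with the block differed from the main fit in 1 such call, as Gdf11 was called lower (-0.37). Without the block, those libraries did not call Gdf3, Cdh1, Dnmt3b, Zic5 or Esrp1, all of which were called with it. Of 204 described genes that were called, 185 were called in the same direction in every setting. Without d4 replicate 2, Zic5 (0.22) and Dnmt3b (0.039) reversed, with ranges of -2.23 to 0.22 and -2.07 to 0.039 over the libraries left out, and 12 described genes lost their call. Calls lost in other settings were mostly of Gdf3, Smad4, Tbx6, Cldn6 and Esrp1. After thinning, those of Wnt3a, Tagln, Acta2 and Grhl2 were lost too. Nr6a1-/- calls were 1609 to 2202 without 1 library (800 to 1062 higher, 798 to 1197 lower). Differences between genotypes went from 323 to 222 after thinning (103 higher, 119 lower against 142 and 181), and to 205 to 830 without 1 library (82 to 504 higher, 123 to 326 lower). Depth limited what could be seen in weakly expressed genes, as differences in genes near 1.44 CPM, the limit of a count of 0 in the shallowest of the 6 libraries, could not be measured. The cause of these changes was not tested.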

Other observations

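Some called genes were not named above, although most belong to lists counted there. They were picked after their values had been seen and carry no test beyond the fit across all genes. In the chemokine and apelin genes of the guidance list, of which 2 of 6 rose and 1 fell (1 and 1 without d4 replicate 2), Apela, the ligand of the apelin receptor in the early embryo, measured 16.9, 30.7 and 14.9 CPM at d4 and 5.1, 5.2 and 8.4 CPM at d4G and fell by 1.76 ± 0.31 (edgeR FDR 3.2e-05). Ackr3, a scavenger receptor for the chemokine Cxcl12, rose by 1.72 ± 0.46. Gldc, a subunit of the glycine cleavage system that stands in the NMP list, fell by 0.78 ± 0.17. Suz12, a core subunit of Polycomb repressive complex 2, rose by 0.69 ± 0.13 and the cyclin-dependent kinase Cdk6, of the cell cycle list, by 0.58 ± 0.15. Each of these calls held without d4 replicate 2, with values of -1.33, 1.41, -0.71, 0.82 and 0.59 in that order.

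Among Hox genes of group 9, Hoxc9 and Hoxd9 rose by 2.02 ± 0.13 and 2.63 ± 0.19, beside the fall of Hoxb9. Hoxa10 measured 3.0, 2.5 and 2.7 CPM at d4 and 114, 130.2 and 142 CPM at d4G and rose by 5.56 ± 0.28.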
